A study of Drosophila melanogaster with 4 samples.

Results

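Genes that mark juvenile or temporal identity were examined in wing imaginal discs of Paip1 mutant larvae and of y w control larvae. The 9 genes chinmo, Imp, lin-28, Syp, Eip93F, Kr-h1, Met, gce and ab were taken by name from a deposited table of 17559 genes. All 9 were listed, each on 1 row. The study sequenced Drosophila melanogaster disc RNA of the third instar, with 2 libraries from Paip1 mutants and 2 from y w controls. Wing discs are larval epithelial sacs from which the adult wing and notum arise, and Paip1 encodes a partner of poly(A)-binding protein, which coats the tails of mRNAs. Neither the allele of Paip1 nor the presence of y and w in the mutants is stated in the labels, and age is given only as the third instar. Strain, hour within the instar and the Paip1 mutation can therefore not be told apart in any difference below. The labels do not state whether replicates are independent dissections, and the p-values cover only variation among these 4 libraries, which could be technical.

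Insect tissues pass through larval, pupal and adult programmes. In Drosophila, the BTB zinc-finger protein Chinmo is associated with the larval state, Broad with the pupal state and Eip93F, also called E93, with the adult state. Juvenile hormone binds the receptors Met and Gce, which induce Kr-h1, a zinc-finger protein that holds back metamorphosis. In neural stem cells the RNA-binding proteins Imp and Syp form opposing temporal gradients, and Imp favours chinmo expression while Syp opposes it. Lin-28 blocks maturation of the microRNA let-7, and let-7 in turn lowers the output of chinmo and ab.

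In Paip1 mutant discs chinmo, ab and Imp were higher than in controls, by 6.81-fold, 2.04-fold and 1.5-fold in mean level. Syp and Kr-h1 were 2.91-fold and 2.12-fold lower, while Met did not differ beyond its spread. The transcripts of Eip93F, gce and lin-28 were too low for the test, and none had a group mean above 0.705 TPM. TPM is a transcript's share of its library corrected for length. Of the 9 genes 6 entered the limma test, and each of those stood at 1 TPM or more in all 4 libraries. Past a Benjamini-Hochberg adjusted p under 0.05, 3 were higher and 2 lower. Among all 8605 genes tested 15.6% were higher and 29.1% lower, or 44.8% in either direction, so that 5 calls among 6 genes are set against a background in which changes were common. Their median log2 fold change was 0.24, against -0.22 over all genes tested.

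**Figure D1:**
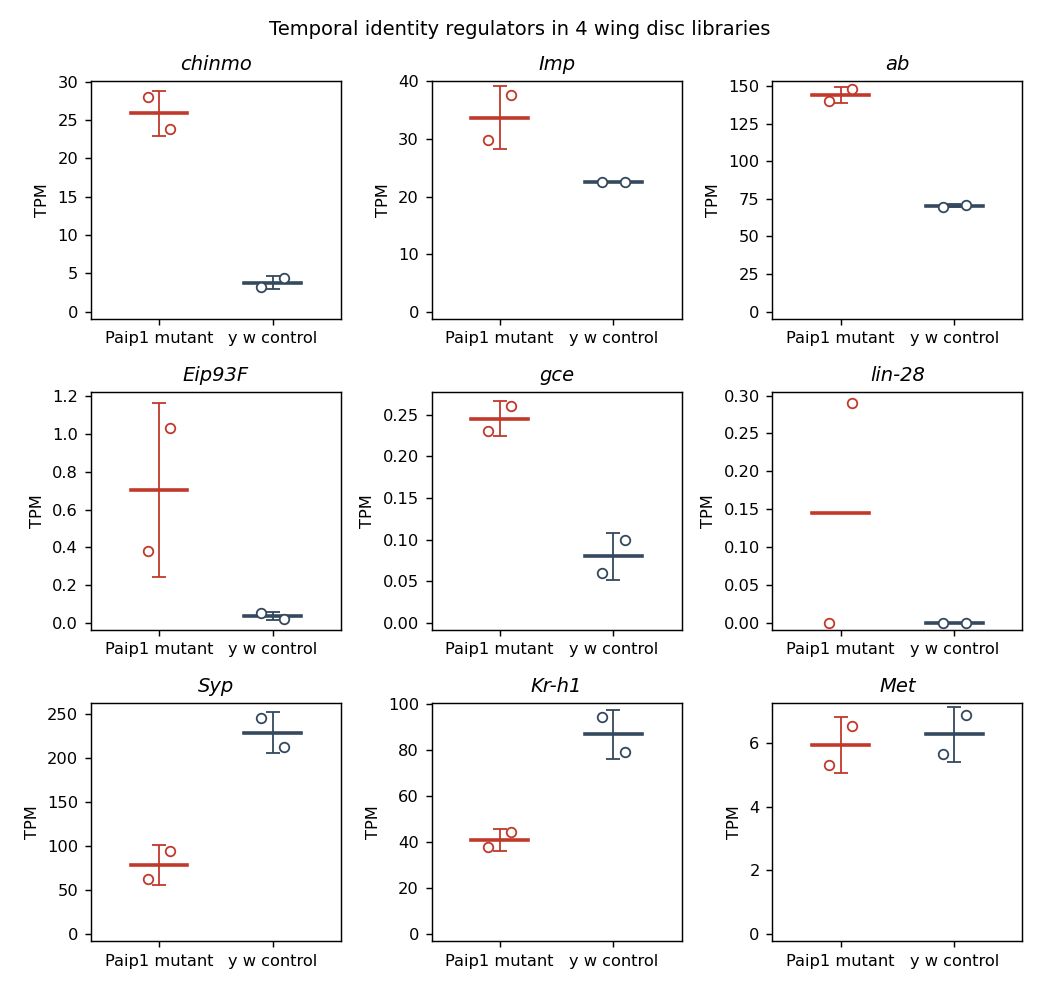
TPM of each of the 9 genes in Paip1 mutant (left) and y w control (right) libraries. Open points are libraries, thick lines group means and thin bars the SD (n = 2 each; none is drawn where a library is at 0); vertical scales differ between panels. The mutant points of chinmo, Imp and ab lie above both control points, those of Syp and Kr-h1 lie below them, and those of Met overlap.

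Summed over listed genes, the mutant libraries held 919460 and 936038 TPM and the control libraries 995750 and 996531 TPM, and read depth is unknown because TPM keeps none. Paip1 itself was at 2.37 and 2.22 TPM in mutant discs, against 112.22 and 121.08 TPM in control discs. Counts of cell type markers below are set against 15.6% higher and 29.1% lower among all genes tested. All 10 epithelial wing disc markers were above 1 TPM in every library, and 7 of them were lower in mutant discs, 2 without control replicate 1 and 2 without control replicate 2. Salivary gland glue genes, which discs do not normally express, set y w control replicate 1 apart. The 5 of them summed to 2.27 and 2.87 TPM in mutant replicates 1 and 2, and to 3550 and 1.72 TPM in control replicates 1 and 2. Fat body genes summed to 306 and 39.9 TPM in the mutant libraries and to 1539 and 506 TPM in the control libraries. Muscle markers summed to 15424 and 15394 TPM in the mutant libraries and to 170.9 and 181.5 TPM in the control libraries. Nearly all of that was 1 gene, sls, at 15294.99 and 15302.75 TPM in mutant discs and 157.64 and 160.13 TPM in control discs. Because 1 control library stands apart, calls on the 9 regulators that change without it are given with that value. All 6 muscle markers were higher in the mutant, and 5 without either control library. All 5 myoblast markers were lower, against 1 without control replicate 1 or control replicate 2, 2 without mutant replicate 1 and 2 with no filter on low values. Of 6 tested hemocyte markers 3 were higher, at most 1 with any library left out, and the list summed to 41.7 and 10.9 TPM in mutant discs and to 1.08 and 15.02 TPM in control discs. Of 4 tested glial markers 2 were higher (moody and wrapper) and 1 lower, and the list summed to 122 and 143.5 TPM in mutant discs and to 131 and 137 TPM in control discs. Of 3 tested tracheal markers 2 were lower (trh and pio), 1 without control replicate 1, with sums of 125 and 132 TPM in mutant discs and 282 and 242 TPM in control discs. Of 3 tested neuroblast markers 1 was higher and 1 lower. The lower glial and neuroblast calls were lost without either control library, and the glial one also without mutant replicate 1. The glial call was further lost at a pseudocount of 0.1, with no filter, under both scalings and with no variance trend. Hemocyte markers called higher numbered 1 at a pseudocount of 0.1 or 0.5, and 0 with no filter on low values. The part of these cell types in the results was not tested. In bulk tissue fewer cells of a type and less RNA per cell cannot be told apart.

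Relative abundance within a group gives a second view of the same values. In mutant discs the descending order was ab, Syp, Kr-h1, Imp, chinmo, Met, Eip93F, gce and lin-28. Between neighbours in that order, Kr-h1 overlapped with Imp, and gce with lin-28. In control discs the order was Syp, Kr-h1, ab, Imp, Met, chinmo, gce, Eip93F and lin-28, and no neighbours overlapped between their 2 libraries. The gene ab thus ranked above Syp and Kr-h1 in mutant discs and below both in control discs, and chinmo ranked above Met in mutant discs and below it in control discs. Against all listed genes, chinmo stood above 79% and 75% of them in mutant replicates 1 and 2, and above 58% and 59.5% in control replicates 1 and 2. Syp stood above 90.2% and 93.1% in the mutant libraries and above 97.5% and 96.9% in the control libraries.

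Among the regulators of the juvenile state, chinmo (FBgn0086758) lies on the plus strand of chromosome 2L, from 1651258 to 1704682 in dm6, with 6 annotated transcripts. It was at 27.94 and 23.82 TPM in mutant replicates 1 and 2, against 3.19 and 4.41 TPM in control replicates 1 and 2. Both mutant libraries were more than 5 times as high as either control library. The log2 fold change on the log2(TPM + 1) scale was 2.49 (SE 0.18, 95% interval 2.04 to 2.95, adjusted p = 0.000859). Only 2.34% of tested genes had a larger positive change. The call held in all 12 alternative settings, including each library left out, where adjusted p ranged from 0.00673 to 0.032. Of the 9 genes this was the largest tested change.

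The RNA-binding protein gene Imp (FBgn0262735) lies on the minus strand of chromosome X, from 10787869 to 10824277, with 12 transcripts. It was at 29.83 and 37.60 TPM in mutant discs, against 22.48 and 22.52 TPM in control discs. The groups did not overlap, but the mutant libraries differed from each other by more than the lower of them exceeded the controls. Its log2 fold change was 0.55 (SE 0.15, 95% interval 0.19 to 0.92, adjusted p = 0.0312), and 16.3% of tested genes had a larger positive change. Imp shares 14.3% of its exonic bases with a non-coding gene on the same strand, lncRNA:CR45204, which was listed at 0 in all 4 libraries. It did not pass without control replicate 1 (adjusted p = 0.159), control replicate 2 (0.165) or mutant replicate 2 (0.066), and with no filter on low values (0.0667).

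The BTB zinc-finger gene ab, known for its part in dendrite and muscle attachment and as a let-7 target (FBgn0264442), lies on the plus strand of chromosome 2L, from 11210678 to 11261080, with 5 transcripts. It was at 140.28 and 147.70 TPM in mutant discs, against 69.79 and 71.05 TPM in control discs. Libraries of a group were close to each other here, and the groups were far apart relative to that spread. The log2 fold change was 1.02 (SE 0.10, 95% interval 0.76 to 1.28, adjusted p = 0.0023). The call held in all 12 alternative settings. The gene cmet, on the opposite strand, overlaps 0.756% of its exonic bases. Of the 9 transcripts ab was the most abundant in mutant discs.

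The RNA-binding protein gene lin-28 (FBgn0035626) lies on chromosome 3L, from 5654681 to 5657384 on the plus strand, with 1 transcript. It was listed at 0 and 0.29 TPM in mutant replicates 1 and 2, and at 0 in both control libraries. No difference was detectable at this level. The primary transcript of the let-7 complex, let-7-C, was equally close to the lower limit, at 0.07 and 0.17 TPM in mutant discs and 0.08 and 0.11 TPM in control discs. These libraries give no measure of mature microRNAs.

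On the side of late identity, Syp (FBgn0038826) lies on the plus strand of chromosome 3R, from 20756729 to 20810726, and has 20 annotated transcripts. It was at 62.44 and 94.75 TPM in mutant discs, against 245.64 and 212.56 TPM in control discs. Both mutant values were below 0.5 of the lower control value, although mutant replicate 2 was well above mutant replicate 1. The log2 fold change was -1.56 (SE 0.22, 95% interval -2.11 to -1.01, adjusted p = 0.00585), and 3.37% of tested genes had a larger negative change. Without control replicate 1 the adjusted p was 0.0528 and the log2 fold change -1.45. In the other 11 settings the call held.

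The adult specifier gene Eip93F (FBgn0264490) lies on the plus strand of chromosome 3R, from 21949114 to 22014539, with 3 transcripts. It was at 0.38 and 1.03 TPM in mutant discs, against 0.05 and 0.02 TPM in control discs. Although both mutant libraries were above both controls, only 1 library of 4 reached 1 TPM and the mutant libraries differed from each other by more than the smaller of them differed from the controls. With no filter on low values the log2 fold change was 0.69 (SE 0.21, adjusted p = 0.0937). The pseudocount of 1 makes that change much smaller than the ratio of the means, 20.1.

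For the hormone receptors, Met (FBgn0002723) lies on the plus strand of chromosome X, from 11616124 to 11621280, and gce (FBgn0261703) on the plus strand of the same chromosome, from 15297766 to 15319074. Both encode bHLH-PAS receptors of juvenile hormone and descend from a shared ancestor. Met was at 5.31 and 6.54 TPM in mutant discs, against 5.65 and 6.88 TPM in control discs, so the groups overlapped. Its log2 fold change was -0.07 (95% interval -0.52 to 0.38, adjusted p = 0.763), and its sign was positive under median-ratio scaling (0.08) and common-sum scaling (0.02), without control replicate 2 (0.05) and without mutant replicate 1 (0.06). Changes in Met between the ends of that interval could not be told from none. The paralogue gce was far lower, at 0.23 and 0.26 TPM in mutant discs and 0.06 and 0.10 TPM in control discs. With no filter on low values gce had a log2 fold change of 0.21 (SE 0.06, adjusted p = 0.0835). An antisense transcript, asRNA:CR44961, covers 37.8% of the exonic bases of gce, and no source used here says whether counting used strand.

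The hormone-induced repressor gene Kr-h1 (FBgn0266450) lies on the plus strand of chromosome 2L, from 6082603 to 6096498, with 2 transcripts. It was at 37.54 and 44.28 TPM in mutant discs, against 93.99 and 79.18 TPM in control discs. The groups were well apart relative to the spread within each. The log2 fold change was -1.06 (SE 0.15, 95% interval -1.43 to -0.69, adjusted p = 0.00553). Without control replicate 1 it was -0.94 with an adjusted p of 0.0578, and the call held in the other 11 settings. CG45075, on the same strand, shares 78.6% of the exonic bases of Kr-h1, so the division of reads between them is uncertain. It was listed at 0.28 and 0.06 TPM in mutant discs and 2.03 and 1.15 TPM in control discs, far below Kr-h1 in every library.

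**Figure D2:**
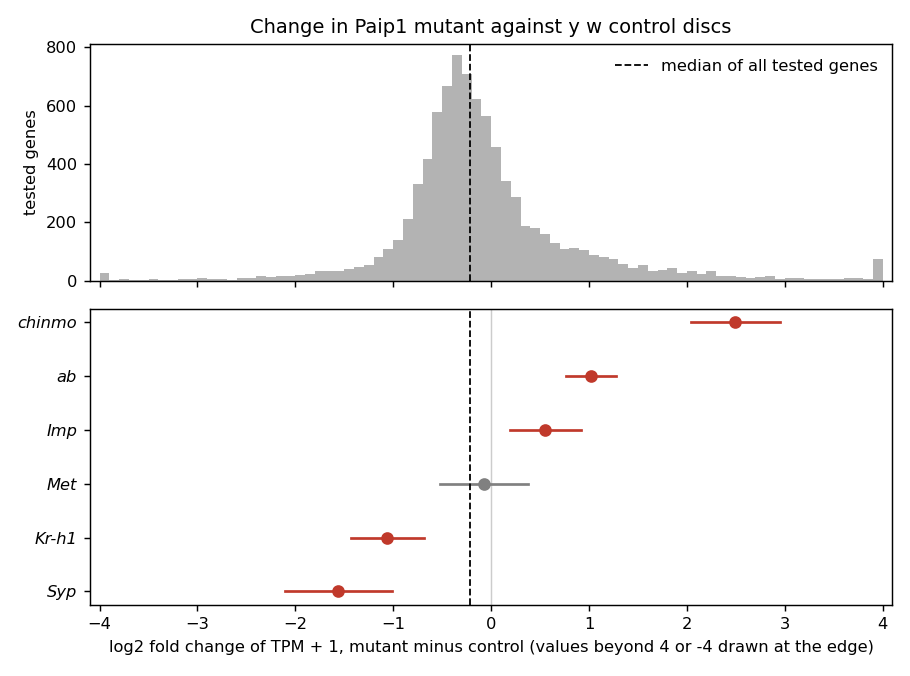
Upper panel, log2 fold changes on the log2(TPM + 1) scale, mutant minus control, of the 8605 tested genes; lower panel, the 6 tested regulators with 95% intervals, red where adjusted p was under 0.05. The dashed line is the median of all tested genes, -0.22; chinmo at 2.49 lies farthest above it and Syp at -1.56 farthest below it.

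Ordering of the libraries was also counted without a test. Among the 6 tested regulators both mutant libraries were above both controls in 3 (chinmo, Imp and ab) and below both in 2 (Syp and Kr-h1). Across all tested genes 25.1% and 52.8% had these orders. The untested Eip93F and gce also had both mutant libraries above both controls, but those shares do not cover genes below the filter. Among other untested genes of the related and marker lists, jhamt, tll and dan had the same order, hb overlapped and ase had the reverse. This order near the floor is therefore not particular to Eip93F and gce. The median of all tested genes was -0.22 and moved to -0.06 under median-ratio scaling, and relative to it the changes of chinmo, ab, Imp, Met, Kr-h1 and Syp were 2.71, 1.24, 0.77, 0.15, -0.84 and -1.34. No called regulator changed direction under either scaling. Of 3852 genes called in all, 34.9% were higher, against 49.8% under median-ratio scaling, 44.3% under common-sum scaling and 47.4% with no filter on low values. That share was 59.9% without control replicate 1 and 57.7% without control replicate 2, where most calls were higher, and 47.6% without mutant replicate 1.

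Ratios between 2 of these genes within a library do not depend on how libraries are scaled. Imp over Syp, a ratio that falls with age in neural stem cells, was 0.478 and 0.397 in mutant replicates 1 and 2, against 0.0915 and 0.106 in control replicates 1 and 2. Its geometric mean was 4.42 times as high in mutant discs, and the groups did not overlap. The ratio of chinmo over Syp was 0.447 and 0.251 in mutant discs and 0.0130 and 0.0207 in control discs, 20.4 times as high in the mutant. For ab over Kr-h1 the ratio was 3.74 and 3.34 in mutant discs and 0.743 and 0.897 in control discs. Met over Kr-h1, the receptor relative to its induced gene, was 0.141 and 0.148 in mutant discs and 0.0601 and 0.0869 in control discs. Each of these pairs sets a gene called higher, or Met, over a gene called lower, so their common direction follows from the choice of pairs. Imp over chinmo was lower in mutant discs, at 1.07 and 1.58, against 7.05 and 5.11 in control discs. Met over gce and br over chinmo were also lower in mutant discs. All these ratios combine genes of the lists and are given as values, with no test.

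**Figure D3:**
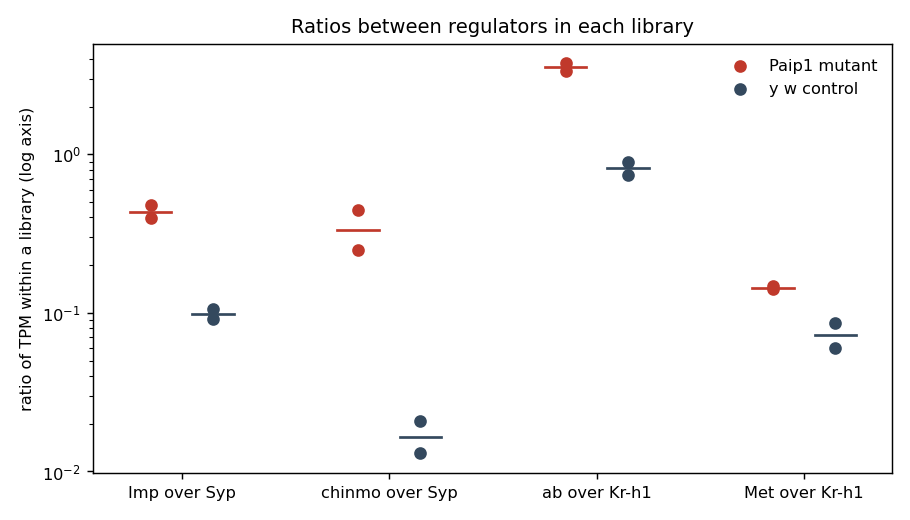
Ratio of TPM between pairs of regulators within each library, on a log axis, with Paip1 mutant libraries left of y w control libraries; points are libraries and lines geometric means (n = 2 each). All 4 ratios drawn are higher in both mutant libraries than in both control libraries, and of these chinmo over Syp differs most (20.4 times). Each sets a gene called higher, or Met, over a gene called lower, so this direction follows from the choice of pairs.

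**Figure D4:**
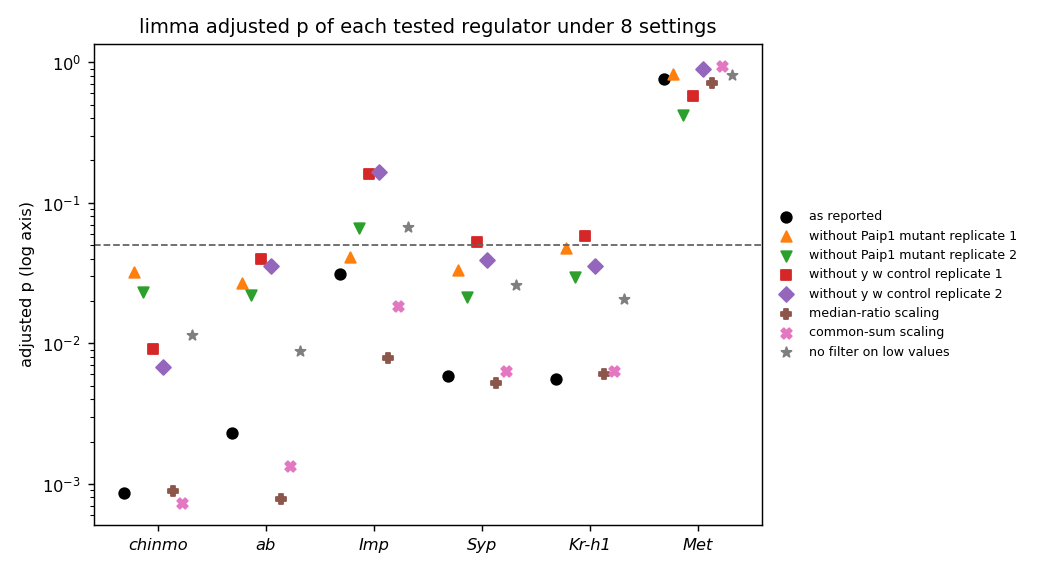
Adjusted p of the 6 tested regulators (log axis) in the test as reported, with each library left out, and under other scalings or no filter; the dashed line marks 0.05. All points of chinmo and ab lie below the line, Imp lies above it in 4 settings, Syp and Kr-h1 lie above it without y w control replicate 1 (0.0528 and 0.0578), and Met lies above it throughout.

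In the authors' deposited table the direction was the same for each of the 5 called genes. Their log2 fold changes there were 2.96 for chinmo, 1.20 for ab, 0.77 for Imp, -0.92 for Kr-h1 and -1.41 for Syp. The authors' deposited table marked chinmo, ab and Syp as significant, and Imp and Kr-h1 as not. Its adjusted p was 2.98e-09 for Imp and 1.35e-09 for Kr-h1, so the mark did not follow adjusted p alone. Imp and Kr-h1 had the smallest absolute log2 fold changes of the 5 called genes there. Among low genes the authors' deposited table gave Eip93F a log2 fold change of 5.53 with an adjusted p of 3.1e-12, and marked it as significant. Here Eip93F was below the filter at 1 TPM and did not enter the test. For gce the authors' deposited table gave 1.74 (adjusted p = 0.146), and for lin-28 it gave 4.19 (adjusted p = 1). Met was at 0.15 in the authors' deposited table (adjusted p = 0.555), opposite in sign to the value of -0.07 here on the log2(TPM + 1) scale. Under median-ratio scaling the value here was 0.08, so the sign of Met depends on scaling.

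Other genes of the juvenile hormone pathway moved in both directions. Counts of related groups are set against the 15.6% higher and 29.1% lower among all genes tested. Of 12 listed genes 9 were tested, 2 were higher, 3 lower and 4 did not pass (median log2 fold change -0.22, equal to that of all tested genes). JhI-26, named for its induction by juvenile hormone, was at 62.51 and 39.14 TPM in mutant discs, against 0.66 and 0.54 TPM in control discs (log2 fold change 4.98, SE 0.24, adjusted p = 0.0003). The groups were widely separate. Among the epoxide hydrolase genes, whose products degrade the hormone, Jheh2 was at 121 ± 9.56 TPM in mutant discs and 234 ± 4.6 TPM in control discs (SD, n = 2 each; log2 fold change -0.95, adjusted p = 0.00348). Jheh1 fell as well (log2 fold change -1.07, adjusted p = 0.00755), and Jheh3 rose at low level, to 2.76 ± 0.488 TPM in mutant discs, against 1.06 ± 0.0424 TPM in control discs (adjusted p = 0.0282). The third gene below controls was Fkbp39, an immunophilin gene named after its value was seen, at -0.36 (adjusted p = 0.0351), a call lost under both scalings (0.205 and 0.0895) and without any 1 library (0.0576 to 0.207). These 3 epoxide hydrolase genes are close relatives, so the division of reads among them is uncertain. Calls of Jheh1, Jheh2 and Jheh3 were lost without control replicate 2 (adjusted p = 0.0668), control replicate 1 (0.0501) and either control or mutant replicate 1 (0.109, 0.122 and 0.0649). The receptor coactivator gene tai, at 28.3 ± 2.53 TPM in mutant discs and 33.1 ± 2.03 TPM in control discs, did not pass (adjusted p = 0.194). Without control replicate 1 or 2 there was 1 gene higher and 1 lower in the list, and without mutant replicate 1 there were 1 and 2.

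Ecdysone response regulators, which act with these genes in metamorphosis, had 6 of 10 tested genes lower, 1 higher and 3 that did not pass (median log2 fold change -0.76), against 29.1% lower and 15.6% higher among all genes tested. The pupal specifier br was at 112.29 and 197.65 TPM in mutant discs, against 565.00 and 429.40 TPM in control discs (log2 fold change -1.72, SE 0.29, adjusted p = 0.0101). Leaving out control replicate 1 (adjusted p = 0.0709) or mutant replicate 1 (0.05) ended that call. Set against its larval counterpart, br over chinmo was 4.02 and 8.3 in mutant discs and 177 and 97.4 in control discs. The nuclear receptor gene ftz-f1, active after the ecdysone pulse, was the gene that rose, to 19.1 ± 0.82 TPM in mutant discs, against 7.97 ± 0.134 TPM in control discs (log2 fold change 1.16, adjusted p = 0.00236). The receptor partner usp fell (log2 fold change -0.65, adjusted p = 0.0115), and lost its call without control replicate 1 (0.103) or 2 (0.0918). Eip78C, also a nuclear receptor gene, fell (log2 fold change -1.68, adjusted p = 0.00625), and lost its call without mutant replicate 1 (0.0571) or 2 (0.0526). The ecdysone receptor gene EcR, named after its value was seen, was at 63.9 ± 8.38 TPM in mutant discs and 62.8 ± 1.53 TPM in control discs (adjusted p = 0.913). Hr4 and Hr3, also named after their values were seen, fell most in the list (log2 fold changes -2.37 and -2.26). Their control libraries differed, with replicates 1 and 2 at 12.24 and 4.76 TPM for Hr4 and 7.80 and 2.64 TPM for Hr3. Mutant replicates 1 and 2 were at 0.31 and 1.18 TPM for Hr4 and 0.14 and 0.23 TPM for Hr3. The number lower was 2 without control replicate 1 and 1 without mutant replicate 1.

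Neuroblast temporal factors, the transcription factors that neural stem cells express in sequence, include several that also pattern discs. Of 18 listed 9 were tested, 6 fell, 1 rose and 2 did not pass (median log2 fold change -0.75), and 7 were below 1 TPM in every library. Among all genes tested 29.1% were lower and 15.6% higher. The nuclear receptor gene svp was at 1.38 and 1.95 TPM in mutant discs, against 11.75 and 12.70 TPM in control discs (log2 fold change -2.32, SE 0.18, adjusted p = 0.00106). The Sox gene D was at 4.99 and 5.92 TPM in mutant discs, against 0.43 and 0.56 TPM in control discs (log2 fold change 2.11, adjusted p = 0.0021). Neither gene overlapped between groups, and both calls held in every setting in which they were tested. The epithelial regulator grh fell (log2 fold change -1.40, adjusted p = 0.00698), as did the POU gene nub (-0.75, adjusted p = 0.00687). Both lost their calls without control replicate 1 (0.0593 and 0.0607) or 2 (0.0514 and 0.0797), and with either library left out 1 gene of the list was lower. Most neuronal markers were low: 6 of 10 were below 1 TPM in every library, and none was at 0 in all 4. The list summed to 41.7 and 27.7 TPM in mutant discs and to 27.92 and 25.96 TPM in control discs. Of 3 tested 1 was higher, para, at 29.50 and 14.69 TPM in mutant discs, against 8.91 and 10.50 TPM in control discs. The 1 lower was elav, at 7.24 and 9.06 TPM in mutant discs, against 12.83 and 12.33 TPM in control discs. Neither call held with no filter on low values.

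JAK-STAT signalling is known to maintain chinmo in other Drosophila tissues. Of its 7 tested genes 4 were higher and 2 lower (median log2 fold change 2.18). Among all genes tested 15.6% were higher and 29.1% lower. The ligand upd1 was at 145.87 and 113.08 TPM in mutant discs, against 6.54 and 6.36 TPM in control discs. The feedback inhibitor Socs36E was at 215.86 and 199.32 TPM in mutant discs, against 46.33 and 43.54 TPM in control discs. The 4 higher calls, which also include upd2 and upd3, held with every library left out. The 2 lower calls, of the kinase gene hop and the transcription factor gene Stat92E, were lost without control replicate 1 (0.151 and 0.122), control replicate 2 (0.156 and 0.137) or mutant replicate 1 (0.0733 and 0.0517).

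MicroRNA processing genes, through which lin-28 and let-7 act, had 3 of 9 tested genes lower and 6 that did not pass (median log2 fold change -0.29), a share near the 29.1% lower among all genes tested. The 3 were mei-P26, a TRIM-NHL gene that restrains growth (log2 fold change -0.93, adjusted p = 0.00665), the Dicer partner loqs (-0.65, adjusted p = 0.0151) and the effector AGO1 (-0.54, adjusted p = 0.0317). No call of the 3 held without control replicate 1 (0.0676, 0.0794 and 0.173) or control replicate 2 (0.0586, 0.13 and 0.157). Without mutant replicate 1 there was 1 gene lower and 1 higher.

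**Figure D5:**
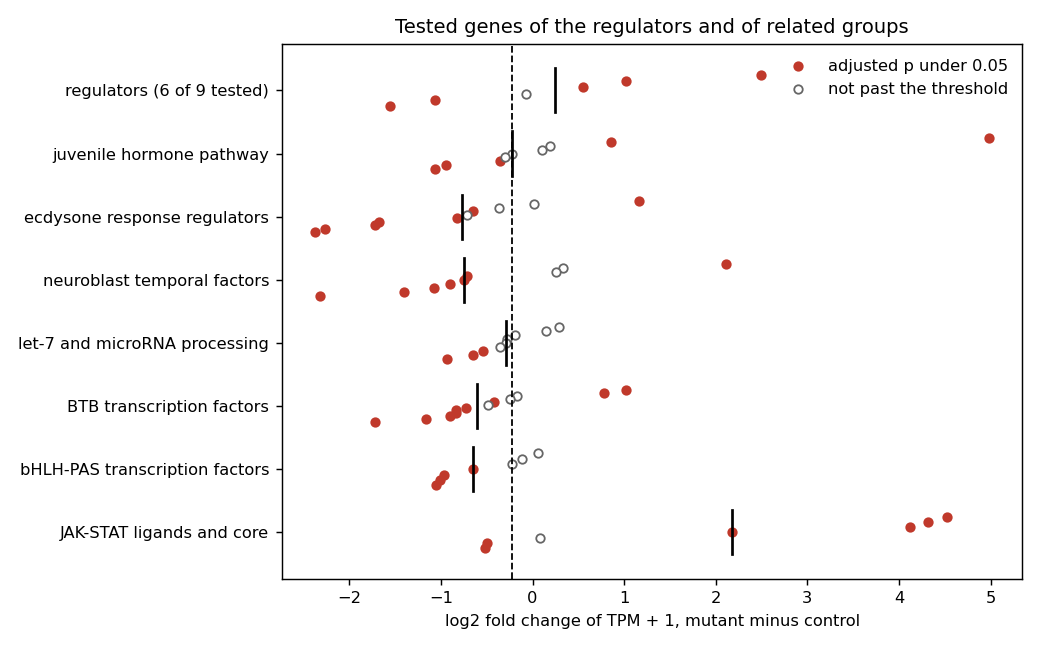
Log2 fold change on the log2(TPM + 1) scale, mutant minus control, of tested genes among the regulators and 7 related groups. Red points passed an adjusted p under 0.05, open points did not, black bars are group medians and the dashed line is the median of all tested genes, -0.22; the medians range from -0.76 for ecdysone response regulators to 2.18 for JAK-STAT genes.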

How the data were processed

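RNA-seq of 4 wing disc libraries was used as 1 deposited table. The authors deposited 1 value per gene and library with no unit in the header, read here as TPM from the sums (91.95% to 99.65% of the nominal total), and the mean columns are their means of these values. Per the file headers, the authors also deposited a fold change (a ratio, mutant over control), the log2 of it, and p-values before and after adjustment. The submitters' processing notes name the build dm6 and the tools TopHat, RSEM, DESeq and FastQC, without roles. For versions, read assignment and strand use, the sources used here are silent. The submitters' build and the Ensembl 115 annotation share dm6 coordinates. Imp was matched there by symbol, the other genes by gene ID.

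The test was limma 3.58.1 (R 4.3.3) on log2(TPM + 1) with variances that follow the mean, two-sided, over the 8605 genes that reached 1 TPM in 2 or more libraries, with Benjamini-Hochberg adjustment and a threshold of 0.05. The pseudocount understates changes of low genes. Residual degrees of freedom were 2 and prior degrees of freedom 3.27. The test code was run on simulated data with equal spread for all genes, which does not show how it behaves on these libraries. No pair of libraries held identical values. Intervals are 95% moderated intervals; no counting error could be given. Python 3.11.15 and matplotlib 3.10.9 made ratios and figures.

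The members and lists were chosen with earlier results of these data known. The rule named Paip1, all members, up to 4 genes per related list by smallest p, and for each tested member the 3 genes of most similar profile. Of 156 listed names 154 were found. The 12 alternatives covered pseudocount, filter, scaling, variance trend, replicate block and each library left out.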

Additional observations from a re-analysis of the deposited data

How the results depend on the processing

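Across 12 alternatives the 6 tested regulators gave 72 values, of which 66 stayed on their side of the threshold, 6 lost the call and none reversed a called direction. The losses were 4 for Imp and 1 each for Syp and Kr-h1. With each library left out, the number of regulators called ranged from 2 to 3 for higher and from 0 to 2 for lower, the 0 coming without y w control replicate 1. The number of all genes called ranged from 1013 (without control replicate 1) to 3273 (without mutant replicate 2), with 1099 without control replicate 2 and 1838 without mutant replicate 1, against 3852 with all libraries. In these fits a lone library is assumed to vary like the other group. Same-numbered libraries deviated together only weakly (r = 0.065 over 8605 genes), so the numbers were not taken as pairs. With the replicate block 4246 genes were called, and 3 regulators higher and 2 lower, as without it. Depth is unknown, so the limits for Eip93F, gce and lin-28 rest on the filter at 1 TPM.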

Other observations

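Families of the regulators were also listed. Of 12 tested BTB transcription factor genes, relatives of chinmo and ab, 7 fell, 2 rose and 3 did not pass (median log2 fold change -0.61), against 29.1% lower and 15.6% higher among all genes tested. The same shares stand beside the bHLH-PAS counts below. The sex-determination gene fru rose to 126 ± 5.33 TPM in mutant discs, against 62.4 ± 13.7 TPM in control discs (SD, n = 2 each; log2 fold change 1.02, adjusted p = 0.00951). The GAGA factor gene Trl fell to 85.2 ± 22.8 TPM in mutant discs, against 189 ± 13.7 TPM in control discs (log2 fold change -1.16, adjusted p = 0.0103), and the insulator gene Cp190 fell to 67.5 ± 6.01 TPM, against 121 ± 0.148 TPM (-0.84, adjusted p = 0.0055). None of the 9 calls held without control replicate 1, and 2 lower and 0 higher remained in number without mutant replicate 1. Of 7 tested bHLH-PAS genes, relatives of Met and gce, 4 fell (trh, dysf, tgo and ss) and 3 did not pass (median -0.65), with 0 lower without control replicate 1, 1 without control replicate 2, 2 without mutant replicate 1 and 2 with no filter on low values.

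Genes with the most similar profile were found by Euclidean distance over the 4 libraries between log2(TPM + 1) values centred on each gene's mean. For chinmo they were fau (distance 0.105), ver (0.12) and Sp212 (0.122). Those nearest to Syp were GV1 (0.068), LRP1 (0.102) and Nep1 (0.112), and those nearest to Kr-h1 were ap (0.053), CG13082 (0.059) and kis (0.069). For ab they were CG34396 (0.032), CG34417 (0.049) and Oct-TyrR (0.06). The pseudocount of 1 brings low genes with larger ratios close to these members. CG34396 and Oct-TyrR had means of 1.23 and 1.12 TPM in mutant discs, 15.4 and 74.7 times those of controls, against 2.04 times for ab. The ratio was 2.01 for CG34417, and 17.3 for Sp212 against 6.81 for chinmo. Imp was nearest to Oat (0.03), CalpB (0.037) and Arpc3A (0.04), and Met to Coq2 (0.02), Dpck (0.028) and dpa (0.032). With 4 libraries in 2 groups such distances describe level differences only.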
